A study of Mus musculus with 6 samples.

Results

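The clustered replication-dependent histone genes are the genes whose symbol in the array annotation begins with Hist1h, Hist2h, Hist3h or Hist4h. There were 61 of them among the 16839 genes of the arrays. By symbol, 6 were of the linker histone H1, 15 of H2A, 17 of H2B, 11 of H3 and 12 of H4. Of the H2B symbols, Hist3h2bb matched the RefSeq entry H2bu1-ps, which is named as a pseudogene. The series measured chromatin immunoprecipitation on promoter arrays (ChIP-chip) in C2C12, a mouse line of myoblasts that fuse into myotubes when serum is low. It had 2 TEAD4 samples, from cells infected with a retroviral vector for Flag-HA-tagged TEAD4, and 1 control sample, from cells infected with the empty vector. Cells of both groups were selected with puromycin, were differentiated for 5 days in medium with 2% horse serum, were fixed for 10 min in 0.4% formaldehyde and were precipitated with an anti-Flag antibody. The tagged protein came from an introduced vector in infected cell populations. The labels call the TEAD4 samples duplicates without saying whether they came from separate cultures. P-values therefore measure only the spread between these 2 samples, mostly as pooled over all sites, and that spread may be technical. Precipitated (IP) DNA and input DNA were compared on 2 array designs, 6 arrays in all.

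Replication-dependent histone genes supply the nucleosome proteins of newly copied DNA and are switched on as cells enter S phase. They lie in gene clusters, have no introns, and give mRNAs that end in a stem-loop in place of a poly(A) tail. The factor NPAT and the stem-loop binding protein SLBP serve them as a group, and many H2A and H2B genes stand in pairs read in opposite directions from a shared promoter. Myotubes have left the cell cycle. TEAD4 is a transcription factor of the TEAD family that binds DNA at the core letters CATTCC and works with the co-activators YAP and TAZ.

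The promoter sequences below show how the letters CATTCC stand in the few histone promoters that hold them, beside 2 genes where both TEAD4 samples were enriched over input. They were taken from RefSeq (GRCm38.p6), each running from 250 bases before to 50 after the start of the gene. Hist1h3d, Hist1h4c and Hist1h4h are the members with a CATTCC on either strand, 3 of the 55 searched. Hist1h1d and Hist3h2a are genes with a window enriched over input in both TEAD4 samples and no such match in this stretch. By the array annotation these windows lay 799 to 1503 bp and 236 to 804 bp downstream of the start. The enriched DNA itself was therefore not searched, and at Hist3h2a the control was higher than TEAD4. Capitals mark, on either strand, the TEAD core CATTCC, the CCAAT box, the TATA box TATAAA and the octamer ATTTGCAT.
Hist1h3d (H3c4, chr13:23575513-23575812, plus strand): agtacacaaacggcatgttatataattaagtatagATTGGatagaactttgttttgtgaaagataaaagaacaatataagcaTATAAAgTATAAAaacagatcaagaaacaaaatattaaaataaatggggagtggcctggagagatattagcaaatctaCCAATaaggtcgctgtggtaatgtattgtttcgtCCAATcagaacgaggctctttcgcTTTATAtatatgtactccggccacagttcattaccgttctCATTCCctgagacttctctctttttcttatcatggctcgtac
Hist1h4c (H4c3, chr13:23698409-23698708, minus strand): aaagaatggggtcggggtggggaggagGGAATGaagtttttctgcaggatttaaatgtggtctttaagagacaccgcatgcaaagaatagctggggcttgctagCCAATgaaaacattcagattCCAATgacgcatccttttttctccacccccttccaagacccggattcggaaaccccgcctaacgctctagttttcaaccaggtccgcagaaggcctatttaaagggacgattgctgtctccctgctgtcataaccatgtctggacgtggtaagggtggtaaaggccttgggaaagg
Hist1h4h (H4c8, chr13:23530794-23531093, plus strand): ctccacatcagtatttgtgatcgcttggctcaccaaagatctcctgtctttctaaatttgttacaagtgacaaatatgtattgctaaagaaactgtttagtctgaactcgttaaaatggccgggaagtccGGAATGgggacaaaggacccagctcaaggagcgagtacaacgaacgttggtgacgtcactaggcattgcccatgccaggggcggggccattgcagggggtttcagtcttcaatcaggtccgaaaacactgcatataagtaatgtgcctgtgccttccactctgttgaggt
Hist1h1d (H1f3, chr13:23554782-23555081, plus strand): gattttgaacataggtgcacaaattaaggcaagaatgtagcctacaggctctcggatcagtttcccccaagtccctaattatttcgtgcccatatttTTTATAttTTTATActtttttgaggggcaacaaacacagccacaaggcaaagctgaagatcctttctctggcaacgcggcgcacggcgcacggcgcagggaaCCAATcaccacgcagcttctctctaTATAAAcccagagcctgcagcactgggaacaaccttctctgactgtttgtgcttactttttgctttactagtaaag
Hist3h2a (H2aw, chr11:58954435-58954734, plus strand): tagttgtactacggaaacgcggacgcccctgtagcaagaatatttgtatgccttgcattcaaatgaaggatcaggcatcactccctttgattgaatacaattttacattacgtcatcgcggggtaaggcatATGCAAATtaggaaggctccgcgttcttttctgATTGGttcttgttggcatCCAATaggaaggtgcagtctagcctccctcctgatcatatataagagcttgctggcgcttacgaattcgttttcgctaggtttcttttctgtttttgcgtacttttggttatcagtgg
The 6 members not searched here were Hist2h4, Hist1h2bc, Hist1h3a, Hist1h3f, Hist2h2be and Hist3h2bb. CATTCC was in 3 of the 55 searched (5.45%) and in 14.6% of all 27025 RefSeq promoters of the same length. CCAAT, bound by NF-Y, was in 47 of the 55 (85.5%) against 37.9% of all promoters. TATAAA, the TATA box, was in 34 of 55 (61.8%) against 14.2%. The octamer ATTTGCAT, bound by POU2F1, was in 13 of 55 (23.6%) against 1.75%. The octamer matches all lay in H2A and H2B genes, 7 of 15 H2A and 6 of 14 H2B promoters. CCAAT was in all 15 H2A and all 14 H2B promoters and in only 3 of 11 H4 promoters. Each motif was searched on both strands, and letters shared by overlapping matches counted for both. Divergent H2A and H2B pairs, such as Hist1h2ah and Hist1h2bk, hold nearly the same stretch read from opposite strands. A site in such a stretch was counted for both genes, so the 55 promoters are not independent. Of the 4 motifs the TEAD core was the only one held by a smaller share of the members than of all promoters. The median GC content of the member promoters was 45.0% (range 33.3% to 72.7%).

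Levels are log2 of IP over input, centred on each array's median, so that 1 is a 2-fold excess of IP over input. A window joins each probe to those up to 500 bp away on either side, needs at least 3 probes, and takes their mean as its level. The start window is the window of the probe nearest to the annotated start, within 500 bp. The members had 1012 distinct probes, of which 70 belonged to more than 1 member, and 925 distinct windows. At least 1 window was found for 55 of the 61 members and a start window for 43. The members were thinly covered, with a median of 3 probes within 500 bp of the start against 5 over all genes. The 6 members with no window, Hist1h2ad, Hist1h2ag, Hist1h2ai, Hist1h2ak, Hist1h2an and Hist2h2ac, all code for H2A. Each of these had 1 or 2 probes. Another 12 members had windows but none at the start, among them Hist1h2ac, Hist1h2bn and Hist2h3c2.

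Over the whole series, control and TEAD4 arrays differed in several ways. The headers record an extended dynamic range for the control arrays alone, and each sample was scanned on a day of its own, so that scan, extraction and group cannot be told apart. The SD of window levels was 0.38 and 0.40 in the TEAD4 samples and 1.04 in the control. The median IP spot signal was 3.62 to 5.41 times its local background on the TEAD4 arrays, against 1.84 and 2.04 times on the control arrays. Part of every difference between TEAD4 and control at the histone genes may lie in these gaps, which was not tested. The arrays measure DNA and not RNA, so the cell type could not be checked by marker expression.

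TEAD4 signal at most histone gene starts was close to input. Over the 43 members with a start window the median level was 0.04 and 0.06 in TEAD4 samples 1 and 2, against medians of 0.20 and 0.15 over all 15587 genes with one. The start window was above input in both TEAD4 samples for 19 members, below input in both for 14, and on different sides for 10. Over all genes, 59.0% of start windows were above input in both TEAD4 samples and 16.8% below in both. At the start, no member was 2-fold over input in both TEAD4 replicates, while 1.05% of all genes were. In the control sample the members' median was 0.25, against 1.34 over all genes. The box plot of start windows shows a wider gap between histone genes and all genes in the control sample than in either TEAD4 sample. The size of that gap depended on the scaling. The control medians of members and all genes were 0.016 and 0.24 after normexp, 0.46 and 0.82 after loess, and 0.10 and 0.64 after quantile normalization, where the TEAD4 medians were 0.089 and 0.18, 0.060 and 0.18, and 0.086 and 0.41.

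**Figure D1:**
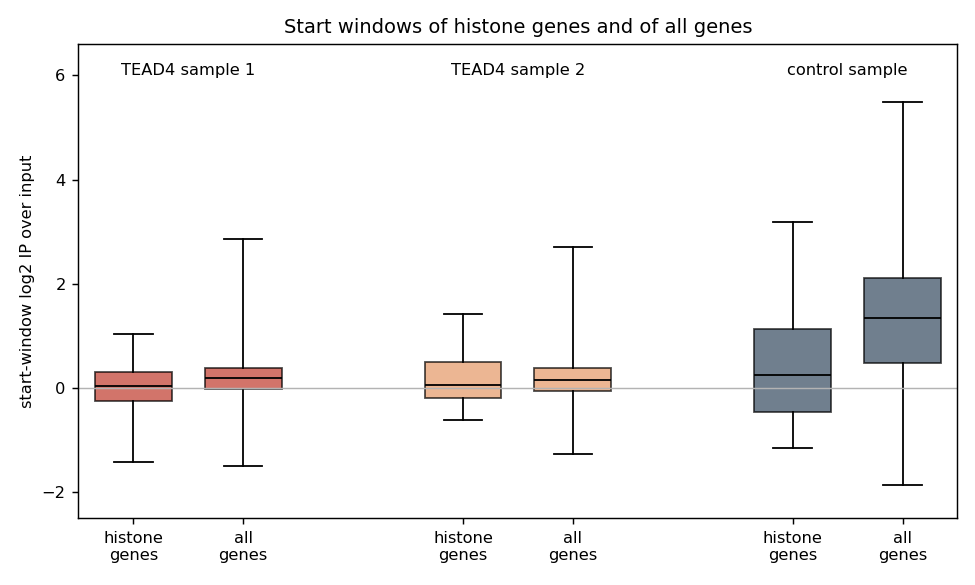
Start-window log2 IP over input in each sample for the 43 histone genes (left box of each pair) and all 15587 genes with a start window. Boxes span the quartiles with the median as a line and whiskers reach the lowest and highest value; the medians of histone genes and of all genes are 0.04 and 0.20, 0.06 and 0.15, and 0.25 and 1.34 in the 3 samples.

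A test of TEAD4 over input (limma, Simes p per gene over all its windows, Benjamini-Hochberg over all 16533 genes with a window, 1 residual degree of freedom) called 11 of the 55 members higher, against 26.0% of all genes. It called 15 of the 55 lower than input, against 11.5% of all genes. The strongest calls above input were Hist1h1d (adjusted p = 0.000128), Hist2h4 (adjusted p = 0.000141), Hist2h3c1 (adjusted p = 0.00015) and Hist3h2a (adjusted p = 0.000641), all from limma. The other members called higher were Hist1h3h, Hist2h2bb, Hist1h2be, Hist1h4a, Hist1h2af, Hist3h2ba and Hist2h2ab, with adjusted p from 0.0087 to 0.0312. Under each of 5 other scalings of the same arrays, 8 of the 11 were called higher again, and Hist1h3h, Hist1h4a and Hist3h2ba were not in all of them. The share of all genes called higher that kept their call was not counted, so this does not set the members against other genes. The strongest calls below input were Hist1h3i (adjusted p = 0.000287 by limma), Hist1h3d (adjusted p = 0.000408) and Hist1h1c (adjusted p = 0.000773).

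The rule of size asked that both TEAD4 samples exceed input by 2-fold or more in the same window. It was met by 4 of the 55 members, Hist2h4, Hist2h3c1, Hist1h1d and Hist3h2a, against 5.19% of all genes. By distinct windows, 7 of 925 member windows met it (0.757%), against 0.660% of all 428020 windows. The share of the histone genes thus lay near the background. The 7 windows formed 3 separate regions. With windows of 1000 bp on each side no member met the rule, against 2.21% of all genes, and after quantile normalization 12 of 55 did, against 27.9%.

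The largest region lay upstream of Hist2h4, a histone H4 gene of the cluster on chromosome 3. It spanned chr3:96348703-96350107 in the coordinates of the files, for which the sources used here name no genome build, and held 8 probes at -1339 to 12 bp from the Hist2h4 start. Its mean level was 0.93 and 1.52 in the TEAD4 samples, against -0.17 in the control. All 8 probes were above 0 in TEAD4 sample 2 and 7 were in sample 1, while 4 were in the control. Its highest window, centred on the probe at -568 bp, had 1.06 and 1.90 in the TEAD4 samples and -0.05 in the control. The same window lies at -4792 bp from an annotated start of Hist2h3c1, a histone H3 gene, whose call came from the neighbouring window of this region, at -4639 bp. The probes under this symbol spanned chr3:96332762-96354064, while their distances ran only from -5088 to 2419 bp. The array annotation thus places the symbol at more than 1 start, and the start used here may belong to another gene copy. At that start the window had 0.04 and 0.01 in the TEAD4 samples and 1.37 in the control.

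The second region lay in Hist1h1d, a linker histone H1 gene in the large cluster on chromosome 13. It spanned chr13:23563271-23564031 with 6 probes, 799 to 1503 bp downstream of the annotated start, which the array annotation classes as inside the gene. Its mean was 1.00 and 1.32 in the TEAD4 samples and -0.35 in the control. All 6 probes were above 0 in both TEAD4 samples and 2 were in the control. The probes 1172, 1319 and 1503 bp downstream had 1.56, 1.72 and 1.44 in TEAD4 sample 1 and 1.51, 1.68 and 1.87 in TEAD4 sample 2, against -0.56, -0.94 and -2.26 in the control. At its start Hist1h1d had -0.26 and 0.58 in the TEAD4 samples and 0.19 in the control. The start window was therefore not where the signal stood.

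The third region lay just downstream of the start of Hist3h2a, a histone H2A gene on chromosome 11. It spanned chr11:58771091-58771713 with 3 probes, 236 to 804 bp downstream of the start. The mean was 1.10 and 1.16 in the TEAD4 samples, against 2.15 in the control. The control mean rested on unequal probes, with 4.83 at 658 bp and -0.59 at 804 bp. Unlike the other regions, this one was higher in the control than in either TEAD4 sample.

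**Figure D2:**
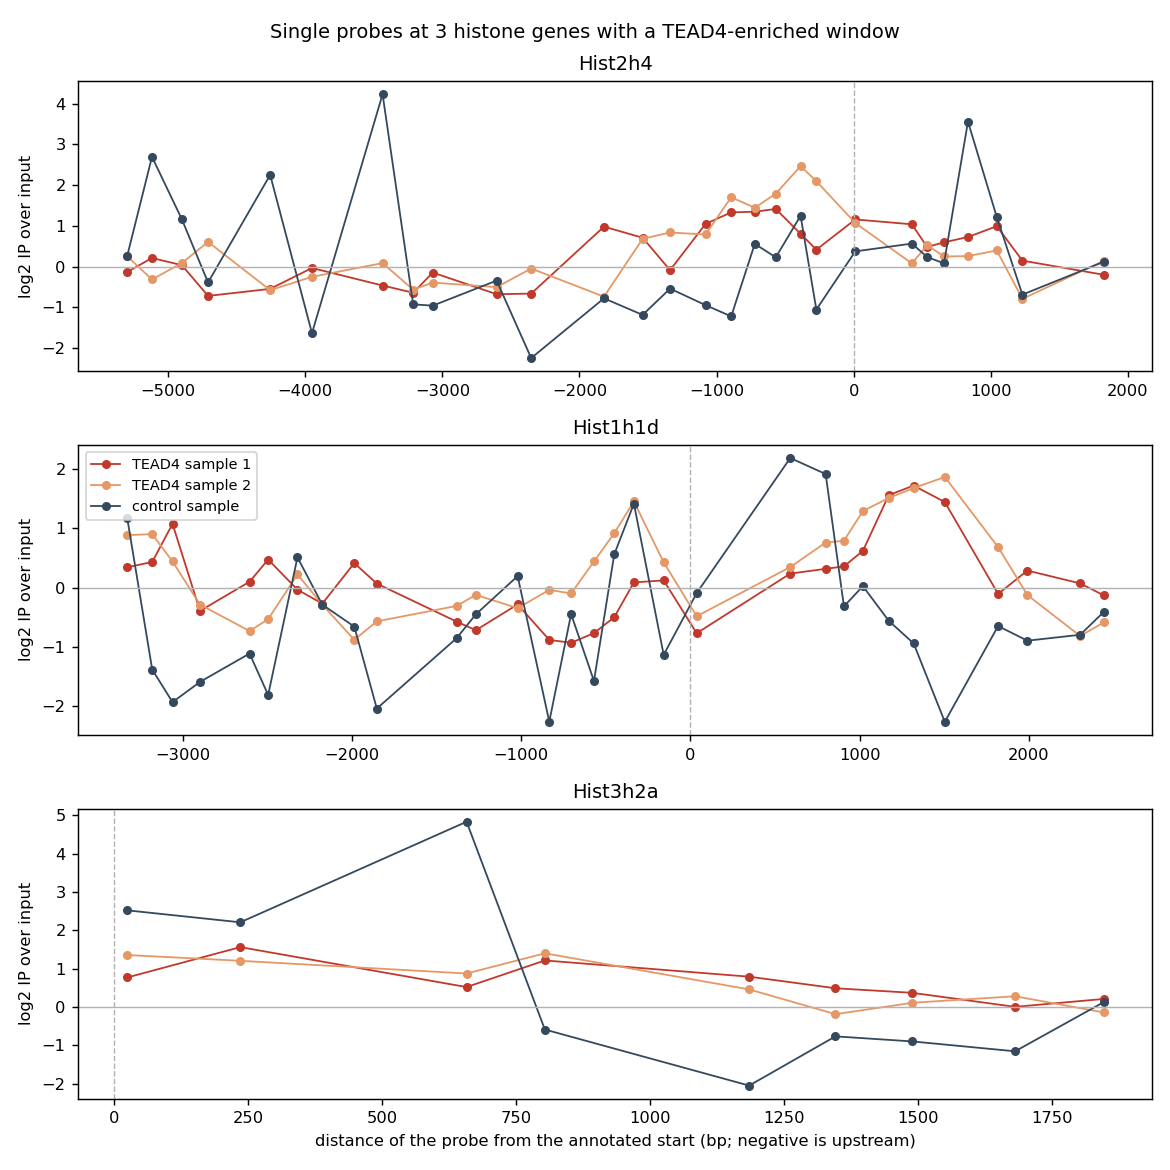
Centred log2 IP over input of single probes (points, joined by lines) against distance in bp from the annotated start of Hist2h4, Hist1h1d and Hist3h2a, in TEAD4 samples 1 and 2 and the control sample. Both TEAD4 samples rise over neighbouring probes upstream of Hist2h4 and over the probes up to 1503 bp past the Hist1h1d start, where the control reaches -2.26; at Hist3h2a the control peaks at 4.83.

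The 3 members just outside the size rule were Hist1h4a, Hist1h2af and Hist1h3e. Hist1h4a, an H4 gene, had 0.69 and 0.80 in its highest window, at -681 bp, against 0.11 in the control. Hist1h2af, an H2A gene, had 0.61 and 0.65 at -2315 bp, against -0.76 in the control. Hist1h3e, an H3 gene, had 1.04 and 0.57 at its start, against 1.41 in the control, so that only TEAD4 sample 1 passed.

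By histone class, the H4 genes had the highest median TEAD4 level at the start. The 11 H4 genes had medians of 0.22 and 0.43 in the TEAD4 samples and 0.23 in the control. Of the 11, 7 were above input in both TEAD4 samples, near the 59.0% of all genes. The 10 H3 genes had -0.18 and 0.03 in the TEAD4 samples and -0.57 in the control. The 9 H2B genes had -0.04 and 0.00 against 0.44, the 7 H2A genes -0.26 and -0.19 against 0.19, and the 6 H1 genes -0.19 and 0.23 against 0.87. Each class held members above and members below input. Differences between classes were not tested.

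Among the linker histone genes, Hist1h1e had -0.31 and -0.55 in the TEAD4 samples and 2.12 in the control. Hist1h1c had -0.67 and -0.24 in the TEAD4 samples and 0.65 in the control. In 5 of the 6 H1 genes both TEAD4 samples were below the control, near the 79.5% of all genes, and Hist1h1d was the exception.

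Among the H2A genes, Hist3h2a was the highest at the start, with 0.95 and 1.14 in the TEAD4 samples and 3.18 in the control. Hist2h2ab had 0.41 and 0.38 in the TEAD4 samples and -0.33 in the control. Hist1h2ah was among the lowest, with -0.83 and -0.21 in the TEAD4 samples and 1.00 in the control. Of the H2B genes, Hist2h2bb was the highest, with 0.49 and 0.98 in the TEAD4 samples and 0.10 in the control. Hist1h2bm had -0.24 and -0.14 in the TEAD4 samples against 2.47 in the control. Hist1h2aa and Hist1h2ba, a divergent pair known for expression in testis, shared 1 start window, which had -0.26 and -0.44 in the TEAD4 samples and 2.87 in the control. That pair had the lowest TEAD4 minus control of all members, -3.22.

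Among the H3 genes, Hist1h3e had 1.04 and 0.57 in the TEAD4 samples and 1.41 in the control. As a whole that gene was called lower than input, from a window at -5111 bp (adjusted p = 0.0163 by limma). Hist1h3h had 0.43 and 0.79 in the TEAD4 samples and -0.79 in the control. Both TEAD4 samples were above the control there, as at 13.5% of all starts, but with 1000 bp windows TEAD4 minus control was -0.12. Hist1h3a had 0.25 and 0.53 in the TEAD4 samples and -1.04 in the control, the highest TEAD4 minus control of all members (1.43). Hist1h3g had -0.15 and -0.08 in the TEAD4 samples and 2.09 in the control. Hist1h3d, whose promoter holds a CATTCC, had the lowest TEAD4 mean of all members, -1.42 and -0.59, with -0.92 in the control. Hist1h3i followed with -0.51 and -0.57 in the TEAD4 samples and -1.02 in the control.

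Among the H4 genes, Hist2h4 led with 0.85 and 1.43 in the TEAD4 samples and 0.28 in the control. Hist4h4, the lone member on chromosome 6, had 0.50 and 0.92 in the TEAD4 samples and -0.09 in the control, although the gene as a whole was called lower than input from a window 1674 bp downstream (adjusted p = 0.0125 by limma). Hist1h4a had 0.64 and 0.62 in the TEAD4 samples against 1.42 in the control, and Hist1h4j had 0.17 and 0.77 against -0.24. Hist1h4f had 0.36 and 0.42 in the TEAD4 samples and -0.89 in the control. The 2 H4 genes with a CATTCC were Hist1h4c, with 0.39 and 0.64 in the TEAD4 samples and 1.58 in the control, and Hist1h4h, with 0.03 and 0.43 in the TEAD4 samples and -1.15 in the control. The 3 members with the core letters therefore lay at the low end, the middle and the upper end of the TEAD4 levels. As a whole Hist1h4h was called lower than input, from a window at -2024 bp (adjusted p = 0.00356 by limma).

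**Figure D3:**
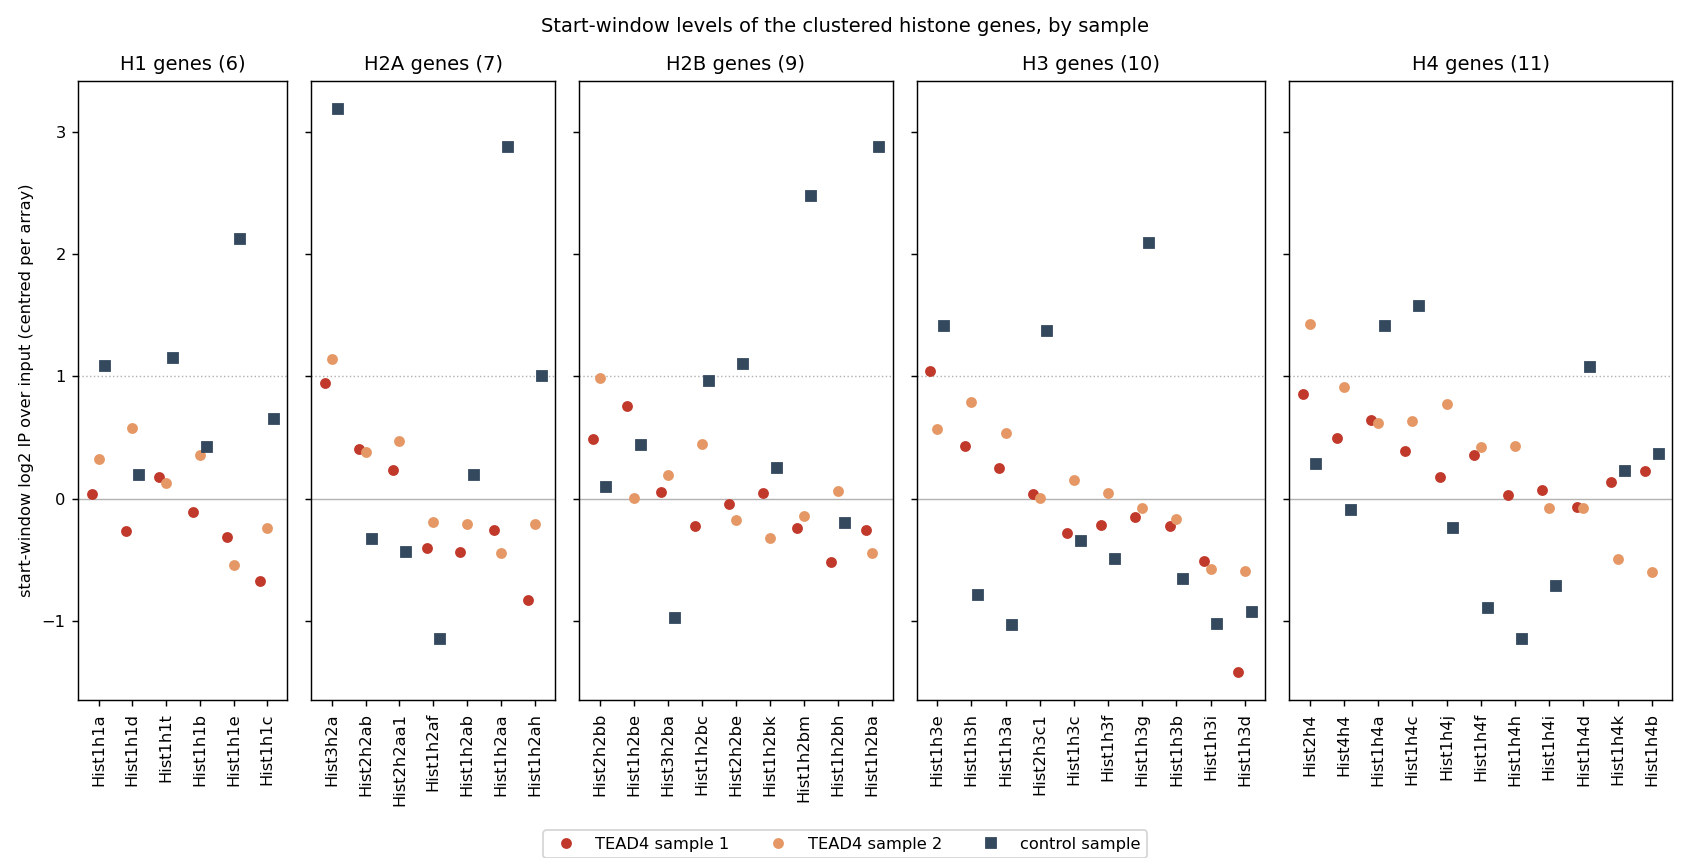
Start-window log2 IP over input of the 43 histone genes in TEAD4 samples 1 and 2 (circles) and the control sample (squares), by histone class and ordered by the TEAD4 mean; lines mark 0 and a 2-fold excess (1). The control squares spread from -1.15 to 3.18, while the TEAD4 circles lie between -1.42 and 1.43.

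By cluster, the Hist2 genes on chromosome 3 had higher TEAD4 start levels than the Hist1 genes on chromosome 13. The 6 Hist2 genes with a start window had medians of 0.32 and 0.43 in the TEAD4 samples and 0.19 in the control, and 5 were above input in both TEAD4 samples. The 34 Hist1 genes had -0.13 and -0.04 in the TEAD4 samples and 0.31 in the control, and 11 were above input in both TEAD4 samples. On the limma test over input, 4 of 7 Hist2 members were called higher and none lower, and 5 of 44 Hist1 members were called higher and 14 lower, against 26.0% and 11.5% of all genes. The Hist2 calls of Hist2h4 and Hist2h3c1 rest on the same region. The clusters lie on different array designs, and the difference between them was not tested. Hist3h2ba, an H2B gene of the Hist3 cluster, had 0.05 and 0.19 in the TEAD4 samples and -0.98 in the control at its start. The gene was called higher than input only through a window at -9421 bp, with 0.47 and 0.98 in the TEAD4 samples.

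The comparison of TEAD4 with the control asks which promoters were enriched beyond the precipitation from cells without the tagged protein. Against the control, limma called 17 of the 55 members higher in TEAD4, against 12.1% of all genes, and 26 lower, against 81.0% of all genes. That test assumes that the lone control sample varies like the TEAD4 samples, so its p-values hold no measured spread of the control. By the rule of size, 22 members had both TEAD4 samples 2-fold or more above the control in some window, against 29.9% of all genes, and 29 had both below by as much, against 81.8%. In the control itself, 27 of the 55 members reached 2-fold over input in some window, against 85.6% of all genes. By distinct windows the control share was 10.6% of the 925 member windows and 26.4% of all windows. At the start it was 15 of 43 members, against 61.0% of all genes. The members have fewer windows than other genes (median 18 against 25), which gives fewer chances to pass. Both TEAD4 samples were above the control at 17 member starts and below it at 22, and the control lay between them at 4. Over all genes both were above the control at 13.5% of starts and below it at 79.5%. The median TEAD4 minus control at the start was -0.30 for the members and -1.11 for all genes. Its sign for the members depended on the scaling: it was 0.03 after normexp background correction, -0.25 after loess, -0.01 after equalising the median absolute deviation of the arrays, 0.17 after quantile normalization and 0.26 uncentred. Over all genes the same scalings gave -0.11, -0.60, -0.34, -0.21 and -0.51, so the members lay above all genes under each of the 5. At single starts, Hist3h2a, Hist1h4a, Hist1h4c and Hist1h3e changed to TEAD4 above control under normexp, median absolute deviation and quantile scaling, and Hist1h3i changed to below under the same 3. Hist1h2af changed to below under normexp. Hist1h1d and Hist1h3d, which lay within 0.08 of the control, also changed sign, Hist1h1d under normexp, median absolute deviation, quantile and uncentred scaling and Hist1h3d uncentred.

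The lowest adjusted p for TEAD4 above control belonged to Hist2h2bb (7.38e-06 by limma), from a window at -436 bp with a TEAD4 mean of 0.73 and a control level of -1.94. Hist1h1d followed (adjusted p = 1.45e-05 by limma). Of the 17 members called higher than the control, Hist1h1d was the only one called higher under all 5 other scalings. None of the 26 called lower was called lower under all 5. Scaling to an equal median absolute deviation called few genes of the whole series higher or lower, and none of the members lower. That setting alone fixed the result for the lower calls and limited the higher calls to Hist1h1d, so neither is a result about the members. The highest windows of Hist2h4 and Hist1h1d kept TEAD4 above the control under all 5 scalings, by at least 1.53 and 1.41 on the log2 scale counting the main one. With windows of 1000 bp on each side the differences were 1.30 and 1.01. These windows were picked for their high TEAD4 level, which favours TEAD4 over the control, and the scalings reuse the same arrays. They are therefore no independent support. The highest window of Hist3h2a lay 1.02 below the control in the main scaling, and 0.96 above it after quantile normalization. For 10 of the 17 members called higher, TEAD4 itself was not called above input, and the control lay below input in the window of lowest p in all 17. The same shares were not counted over all genes called higher, so these counts do not set the members against other genes.

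TEAD4 levels at the histone genes were highest near the start. Counting each window once, at the start nearest to it, the 130 member windows within 500 bp of a start had medians of -0.03 and 0.13 in the TEAD4 samples, against 0.18 and 0.14 over all genes. Beyond 2000 bp upstream the members had -0.25 and -0.19, against -0.11 and -0.09. In the control the windows within 500 bp had a median of 0.14 for the members, against 1.19 for all genes. Beyond 2000 bp upstream the control had -0.40 for the members and -0.04 for all genes. In the control, histone genes thus lay below other genes at both distances, and further below near the start.

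**Figure D4:**
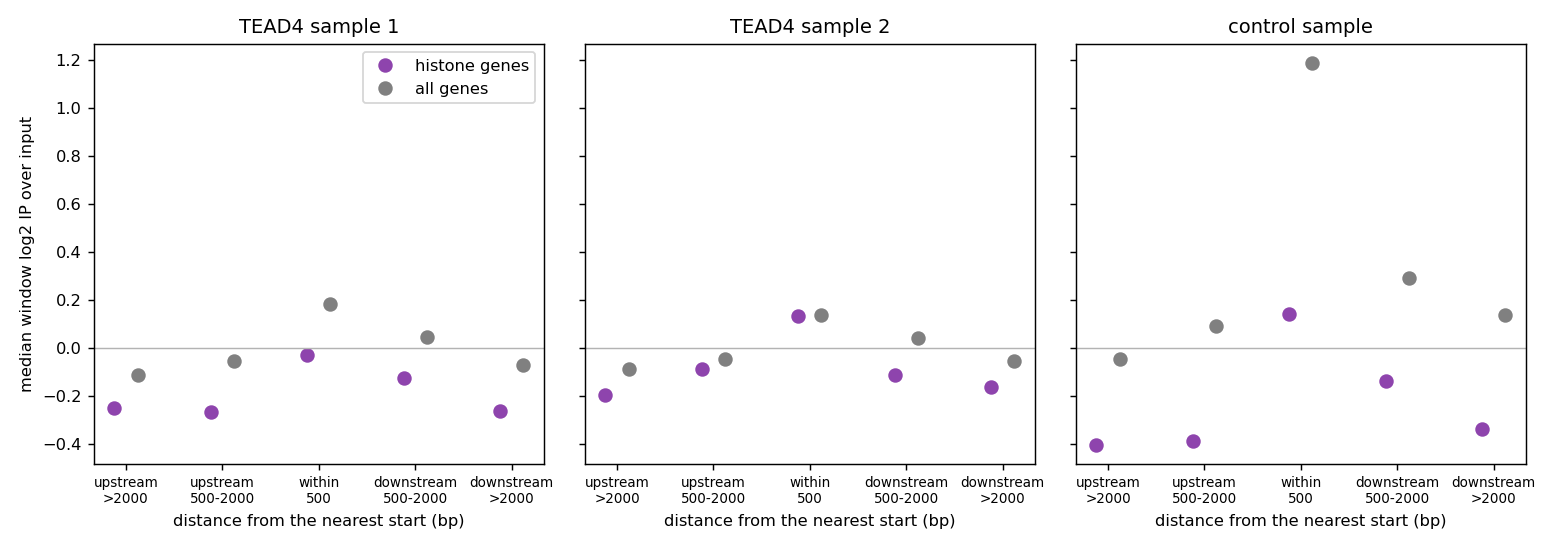
Median window log2 IP over input by distance in bp from the nearest annotated start, for windows of histone genes and of all genes, in TEAD4 sample 1, TEAD4 sample 2 and the control sample. In the control the median within 500 bp is 0.14 for histone genes and 1.19 for all genes, while the TEAD4 samples stay between -0.26 and 0.18.

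Histone promoters differed from those of other genes in GC content and input signal, and the part of these in the levels was not tested. The median promoter GC of the members was 45.0%, against 58.7% for the 12344 genes that had both a start window and a promoter entry. Those were 79.2% of the genes with a start window, under the 80% needed, so a GC check over all genes is void and the values describe the matched genes only. Of the 38 members matched, 25 had a promoter GC up to 49.0%, the lowest of 5 bins of near-equal size of genes, and 10 lay in the next bin, up to 56.0%. In the lowest bin the control median was 0.10 for members and 0.05 for all genes, and the TEAD4 medians were -0.07 and -0.09. In the next bin the control median was 1.12 for members and 0.91 for all genes, and the TEAD4 medians were 0.17 and 0.16. Input signal was also lower at the histone starts. On design 2, which holds 52 of the members, the median log2 input signal of probes within 500 bp of a member start was 9.06 and 9.04 in the TEAD4 samples and 8.77 in the control, against 9.82, 9.82 and 9.62 for probes near any start. All IP probes of the 43 start windows were well above background in both TEAD4 samples, and in the control this held for 33 of the 43 windows. Among the exceptions in the control were Hist1h3d, with 1 of 3 IP probes well above background, and Hist1h2ah, with 2 of 4.

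**Figure D5:**
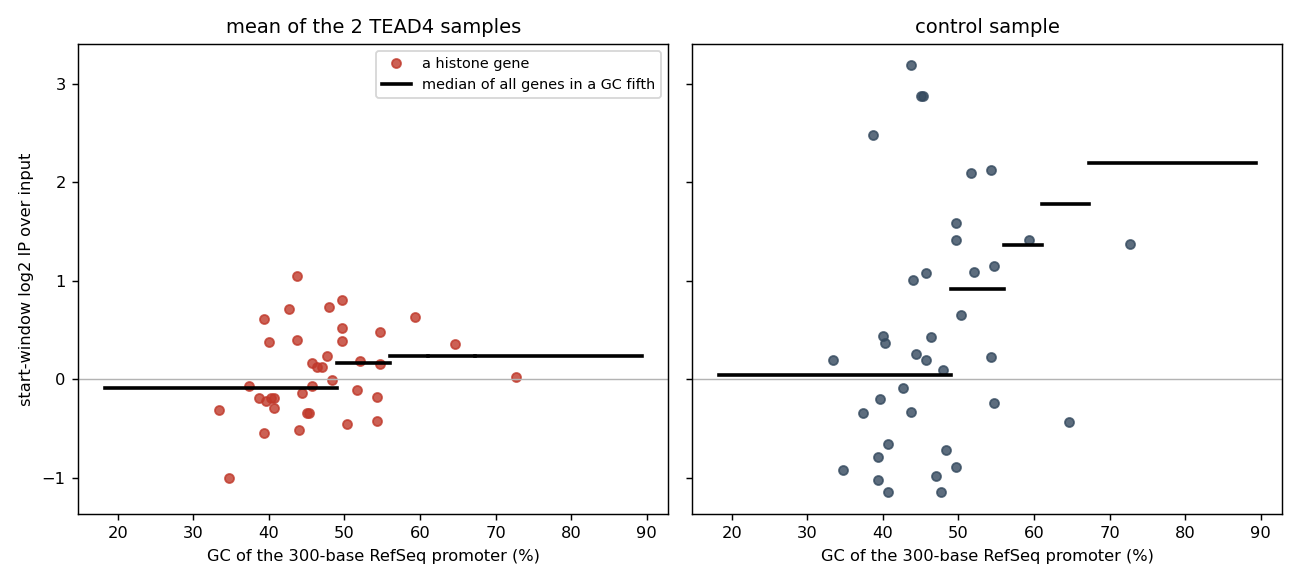
Start-window log2 IP over input of histone genes (points) against the GC content of their RefSeq promoter, as the mean of the 2 TEAD4 samples (left) and in the control sample (right), with the median of all matched genes in each of 5 GC bins (black lines). The control medians climb from 0.05 in the lowest bin to 2.19 in the highest, and most histone genes lie in the 2 lowest bins.

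The replacement histone genes, which are expressed outside S phase and stand apart from the clusters, differed from the members mainly in the control. The 10 with a start window had medians of 0.20 and 0.25 in the TEAD4 samples and 2.64 in the control. Of 13 with a window, 4 were called higher than input and 1 lower. H1fx had 0.23 and 0.42 in the TEAD4 samples and 3.71 in the control, and H1f0, the linker histone of resting cells, had 0.19 and 0.34 against 2.61. H2afy2, a macroH2A gene, had 0.33 and 0.18 in the TEAD4 samples and 2.24 in the control. H1foo, the oocyte linker histone, had 0.22 and 0.27 in the TEAD4 samples and -0.18 in the control.

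Of the factors that act on histone genes and their mRNA, 22 had a window, 7 were called higher than input in TEAD4 and 1 lower, and 21 had start medians of 0.25 and 0.32 in the TEAD4 samples and 2.22 in the control. Casp8ap2, which coats the histone locus body, had 0.45 and 0.66 in the TEAD4 samples and 1.03 in the control, and E2f2, an S-phase activator, had 0.21 and 0.89 against 2.22. Pou2f1, which binds the octamer, had 0.60 and 0.49 in the TEAD4 samples and 2.69 in the control. Gapdh, reported in human cells as part of an H2B co-activator complex, had 0.86 and 0.30 in the TEAD4 samples and 1.95 in the control. The chaperones had 9 of 24 genes called higher than input and none lower, with start medians of 0.36 and 0.30 in the TEAD4 samples and 1.72 in the control. Set, a chaperone, was 2-fold over input at its start in both TEAD4 samples, 1.21 and 1.19, against 0.61 in the control. Npm1 had 1.06 and 0.57 in the TEAD4 samples against 3.23 in the control, and Supt6h had 0.60 and 0.95 against 1.54.

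Genes of DNA replication in S phase had 10 of 35 called higher than input and 4 lower, with start medians of 0.34 and 0.33 in the TEAD4 samples and 1.60 in the control. Mcm2, a subunit of the replicative helicase listed also as a chaperone, had 0.64 and 1.86 in the TEAD4 samples and 1.31 in the control. Rrm1, of ribonucleotide reductase, had 0.59 and 1.00 in the TEAD4 samples and 0.88 in the control. Mcm7 had 0.67 and 0.90 in the TEAD4 samples and 2.60 in the control, and Tk1, thymidine kinase, had 0.51 and 1.02 against 1.22. These lists were chosen with results of these data known, and their counts are read against the 26.0% and 11.5% of all genes called higher and lower than input.

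Non-member genes lying between the outermost members of a cluster had low levels in all samples. There were 39 of them, 36 with a window, and 24 with a start window had medians of -0.22 and -0.14 in the TEAD4 samples and -0.13 in the control. On the limma test over input 5 of the 36 were called higher and 13 lower. The 3 highest in TEAD4 at the start were Zfp322a, a zinc finger gene, with 0.57 and 0.90 in the TEAD4 samples against 1.54 in the control, Abt1 with 0.54 and 0.58 against 2.28, and Slc17a1, a phosphate transporter gene, with 0.32 and 0.42 against 0.80. The low control level was thus shared by histone genes and the other genes between them, many of which are vomeronasal receptor genes.

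Across the 42 distinct start windows of the members, the 2 TEAD4 samples correlated at Pearson r = 0.68, against 0.65 across the starts of all genes. The correlation of each TEAD4 sample with the control was 0.17 and -0.01 for the members, against 0.35 and 0.20 for all genes. These are descriptions across sites that share probes and arrays, with no test.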

How the data were processed

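Per the file headers, the scanner files hold spot intensities of 2-colour promoter arrays read with Agilent Feature Extraction 9.5.3.1, with Cy5 for anti-Flag IP DNA and Cy3 for input on all 6 arrays. The deposited series table holds log10 ratios that equal those of the scanner files (largest difference 0), uncentred and not scaled between arrays. The sources used here name no genome build for the probes.

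IP over input was then taken from the processed intensities as log2 and centred on each array's median after control spots, unplaced probes and non-uniform spots were left out (471870 probes kept). Probes within 500 bp were averaged into windows of at least 3. Windows were tested with limma 3.58.1 (R 4.3.3), fitted per array design on all 3 samples, with 1 residual degree of freedom and a prior variance that followed the number of probes. That trend was added after tests on simulated data. The prior variance, pooled over the windows of a design, carried 16.3 and 17.7 degrees of freedom on designs 1 and 2. A low p therefore need not mean close agreement of the 2 TEAD4 samples at a gene. On simulated data limma still called more unchanged genes than the threshold allows, so calls are given beside the rules of size, which have no test. Gene p-values were combined by Simes and adjusted by Benjamini-Hochberg at 0.05, and direction was that of the window of lowest p. The number of arrays limits the precision, and the control has no replicate.

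Members were matched to RefSeq by accession (58) or synonym (3). The members, gene lists and tests were chosen with earlier results of these data known. Named members were the 10 highest and 5 lowest in TEAD4 at the start, the 5 highest in the control, the 5 highest and 5 lowest in TEAD4 minus control, those with a 2-fold window in both TEAD4 samples, and the 3 just outside. Up to 4 genes of each list and 3 non-members were named by their TEAD4 mean. Other background corrections, scalings, windows and thresholds were tried.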

Additional observations from a re-analysis of the deposited data

How the results depend on the processing

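Of 115 recomputed counts and medians, 70 stayed within their limits (1.5 times for a count, the spread between replicates for a median). The medians changed sign in 11 cases, among them the median TEAD4 level, near 0 at the start, which was -0.093 with 1000 bp windows, -0.13 with the mean of all windows and -0.019 with starts found by accession. Of 544 recomputed values of named members, 49 changed sign, 25 of them for values past the test in the main setting or in the alternative. The count of members called higher than input lay between 8 and 14 under the alternatives run. Leaving out either TEAD4 replicate gave 5 to 6 members 2-fold over input, 26 to 28 above and 31 to 32 below the control, a TEAD4 median of 0.04 to 0.06 and a TEAD4 minus control of -0.39 to -0.31. No limma test was possible there, since no residual degree of freedom was left. These counts of members stand without the shares of all genes under the same settings, so they do not set the members against other genes. No paired analysis was possible because the control has 1 sample.

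In the following, the share of all genes stands in brackets after each count of members. Normexp left 5 members called higher than the control (4.30%) and 1 lower (11.1%), 5 with a 2-fold control window (23.0%), and 7 above (9.15%) and 4 below (14.5%) the control by 2-fold, with a control median of 0.016 and a TEAD4 minus control of 0.025. Loess gave a control median of 0.46. Scaling to an equal median absolute deviation gave 1 higher (1.24%) and 0 lower (0.357%) calls by limma, 9 lower at an unadjusted p under 0.05, 9 control windows (46.3%), 9 above (12.5%), 13 below (31.7%) and a difference of -0.0055. Quantile normalization gave 7 higher (7.18%) and 3 lower (3.06%) calls, 12 members 2-fold over input (27.9%), 13 control windows (53.8%), 11 below (30.8%) and 0.17. Uncentred ratios gave 42 higher (49.4%) and 11 lower (46.7%) calls, 16 control windows (68.8%), 42 above (75.02%), 14 below (60.6%), a control median of -0.33 and 0.26. Windows of 1000 bp left 0 members 2-fold over input (2.21%), 16 control windows (73.0%) and 9 above (13.1%). At least 5 probes left 16 lower calls (75.1%), and 14 members each for control windows (76.2%), above (16.5%) and below (70.1%), with a control median of -0.055 and 0.29. Testing the start window alone gave 16 lower calls (66.0%). At 1.5-fold, 7 members passed over input (20.2%) and 36 above the control (63.4%). At 3-fold, 0 passed over input (0.780%), 15 in the control (69.5%), 4 above (4.75%) and 13 below (61.4%). The mean of all windows gave a control median of -0.11 and a difference of 0.075. The variance without the trend, starts found by accession, distinct start windows and windows within 2000 bp were added after seeing the data. Causes of these shifts were not tested.

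The 25 changes of sign past the test were as follows. TEAD4 minus control at the start turned for Hist3h2a (0.12 normexp, 0.17 median absolute deviation, 0.33 quantile), Hist1h4a (0.26, 0.33, 0.64), Hist1h4c (0.18, 0.075, 0.26) and Hist1h2af (-0.18 normexp). With 1000 bp windows it did for Hist1h4a (0.41), Hist1h3h (-0.12), Hist2h3c1 (0.20) and Hist1h2af (-0.050), and with 5 probes for Hist1h4a (0.27). With the mean of all windows it did for Hist3h2a (0.38), Hist4h4 (-0.20), Hist1h4a (0.59), Hist1h4c (0.061), Hist1h1c (0.14), Hist1h1e (0.26) and Hist2h3c1 (0.22), and the TEAD4 level did for Hist1h3e (-0.28), Hist4h4 (-0.075) and Hist1h4c (-0.020). The other 24 concerned values past the test in neither, such as Hist1h3e (0.66 normexp, 0.60 median absolute deviation, 0.87 quantile) and Hist1h3i (-0.28, -0.37, -0.052).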
